A study of Mus musculus with 14 samples.

Results

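The interferon regulatory factors (Irf genes) were examined as a family in the H3K4me3 peak lists of bone marrow stem and progenitor cells. The 8 genes described are Irf1, Irf2, Irf3, Irf4, Irf5, Irf7, Irf8, and Irf9, of 45217 genes whose start could be placed. The cells were LSK cells (Lin-Sca1+cKit+), sorted from the BM of male C57BL/6J mice. The HFD mice were fed a diet with 60% kcal from fat and the LFD mice a control diet with 10% kcal from fat. Feeding began at 3 to 4 wk of age and lasted 16 to 20 wk in both groups. H3K4me3 was mapped by CUT&Tag, in which an antibody directs a transposase to the mark, from 10000 cells per library. One peak list per library was used, 3 from HFD-LSK and 4 from LFD-LSK, and the 7 IgG control libraries have no list here. The sources used here do not say whether each library came from 1 mouse or from which cohort of mice, so p-values measure the spread between these libraries only.

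Interferon regulatory factors are transcription factors that share a DNA-binding domain and bind GAAA-containing interferon-response elements. Irf3, Irf5, and Irf7 act downstream of pathogen sensors, and Irf7 is itself an interferon-inducible gene. Irf9 is a DNA-binding subunit of the complex that transmits type I interferon signals. Irf1 is induced by interferons, whereas Irf2 can oppose it at the same sites and is known to restrain interferon signaling in hematopoietic stem cells. Irf4 and Irf8 act in lymphoid and myeloid differentiation, often with the factor PU.1 (Spi1). H3K4me3 marks the starts of active and poised genes, most often at CpG-rich promoters.

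A gene was counted as called in a list when a peak overlapped the 1 kb on either side of its start, the 5′ end of the RefSeq gene in GRCm38.p6. Irf2, Irf3, Irf5, and Irf9 were called in 7 of 7 lists, as were 20.2% of protein-coding gene starts. Irf7 was called in 6 lists and Irf1 in 5. Irf8 was called in 1 list and Irf4 in none, and 48.7% of protein-coding starts had no call in any list. A missing call means that no peak passed the p of 1e-05 that limited the lists, not that the mark was absent.

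**Figure D1:**
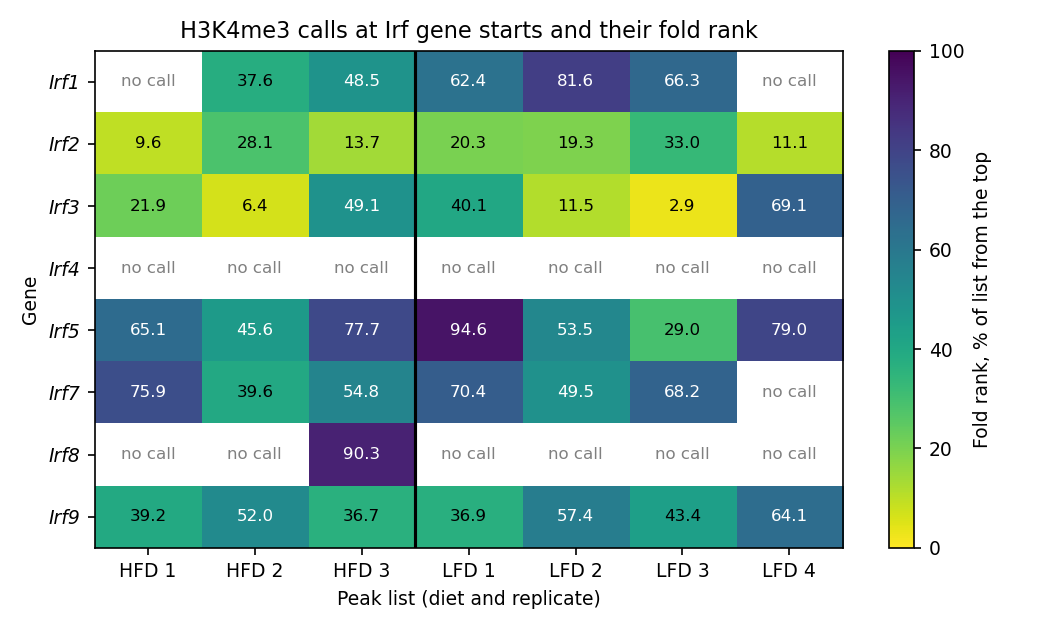
Calls at the 8 Irf gene starts (rows) in the 7 peak lists (columns, HFD-LSK left of the line and LFD-LSK right of it). Each number is the fold rank, the percent of the list counted from the peak with the highest fold enrichment; Irf2 stayed within 9.59% to 33.0% in every list, and white cells have no peak within 1 kb.

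The lists differed in length and in width of their peaks. The HFD-LSK lists held 9186 to 13094 peaks and the LFD-LSK lists 6921 to 10572 (two-sided exact permutation test, p = 0.171). The median width at called protein-coding starts was 892 to 1357 bp in HFD-LSK and 579.5 to 1054.5 bp in LFD-LSK, widest in HFD-LSK replicate 2 and narrowest in LFD-LSK replicate 4. Stem and progenitor markers matched the label in part. Of 12 such genes, 5 were called in all 7 lists, including Kit and Cd34, whereas Ly6a, which encodes Sca-1, and Slamf1 were called in none. No T cell (0 of 7), neutrophil (0 of 6), or nonblood (0 of 6) marker gene had a call in any list. Of the other marker lists, 1 of 6 B cell, 1 of 6 monocyte and macrophage, 1 of 4 plasmacytoid dendritic cell, 1 of 4 NK cell, and 2 of 5 erythroid genes had a call in at least 1 list.

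The promoter sequences of 4 members are shown because calls and CpG content ran in different directions among them. Each window is the 250 bases before and 50 bases from the transcription start in RefSeq, GRCm38.p6, written 5′ to 3′ on the strand of the gene, with every CpG in capitals. Irf8 lies at chr8:120736108-120736407 (plus strand), Irf4 at chr13:30748983-30749282 (plus strand), Irf9 at chr14:55603735-55604034 (plus strand), and Irf7 at chr7:141266375-141266674 (minus strand).
Irf8: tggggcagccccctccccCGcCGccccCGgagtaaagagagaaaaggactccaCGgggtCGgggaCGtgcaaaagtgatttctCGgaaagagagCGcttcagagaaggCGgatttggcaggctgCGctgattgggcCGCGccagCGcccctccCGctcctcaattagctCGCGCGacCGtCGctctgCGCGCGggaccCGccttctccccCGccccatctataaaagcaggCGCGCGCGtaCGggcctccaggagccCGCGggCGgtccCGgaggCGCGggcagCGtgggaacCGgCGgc
Irf4: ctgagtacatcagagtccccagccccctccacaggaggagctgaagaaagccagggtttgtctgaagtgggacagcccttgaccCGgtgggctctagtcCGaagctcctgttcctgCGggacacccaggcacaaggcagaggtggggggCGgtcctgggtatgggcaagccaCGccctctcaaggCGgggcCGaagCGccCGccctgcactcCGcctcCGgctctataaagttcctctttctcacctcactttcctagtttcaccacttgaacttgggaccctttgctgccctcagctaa
Irf9: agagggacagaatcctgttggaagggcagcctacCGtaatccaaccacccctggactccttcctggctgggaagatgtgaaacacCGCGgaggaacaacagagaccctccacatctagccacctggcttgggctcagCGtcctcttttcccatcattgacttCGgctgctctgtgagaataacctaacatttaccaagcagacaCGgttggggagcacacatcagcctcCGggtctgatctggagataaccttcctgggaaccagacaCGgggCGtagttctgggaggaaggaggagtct
Irf7: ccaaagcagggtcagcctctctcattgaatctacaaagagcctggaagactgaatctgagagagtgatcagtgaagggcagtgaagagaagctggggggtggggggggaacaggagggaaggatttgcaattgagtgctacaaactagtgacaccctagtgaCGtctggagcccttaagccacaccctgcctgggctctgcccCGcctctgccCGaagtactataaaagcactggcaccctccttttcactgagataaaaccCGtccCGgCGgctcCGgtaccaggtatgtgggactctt

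The Irf8 window held 38 CpG dinucleotides, a ratio of observed to expected CpG of 1.03, and 94.3% of protein-coding promoter windows had a lower ratio. It was nevertheless called in 1 of 7 lists. Irf4 held 11 CpGs (ratio 0.40) and had no call. Irf9 held 9 CpGs (ratio 0.39) and Irf7 7 CpGs (ratio 0.31), and these starts were called in 7 and 6 lists. Irf4 and Irf9 therefore had nearly the same CpG ratio and the opposite calls. Over all protein-coding genes with a window, 63.5% of starts with a ratio of 0.8 or more were called in 6 or 7 lists and 17.2% in 0 or 1 list, the class that holds Irf8. Among starts with a ratio of 0.2 to 0.4, which holds Irf7, Irf9, and Irf4, 8.51% were called in 6 or 7 lists and 81.9% in 0 or 1. The remaining members had ratios of 0.67 (Irf2), 0.71 (Irf3), 0.89 (Irf5), and 0.91 (Irf1) and were called in 5 to 7 lists.

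**Figure D2:**
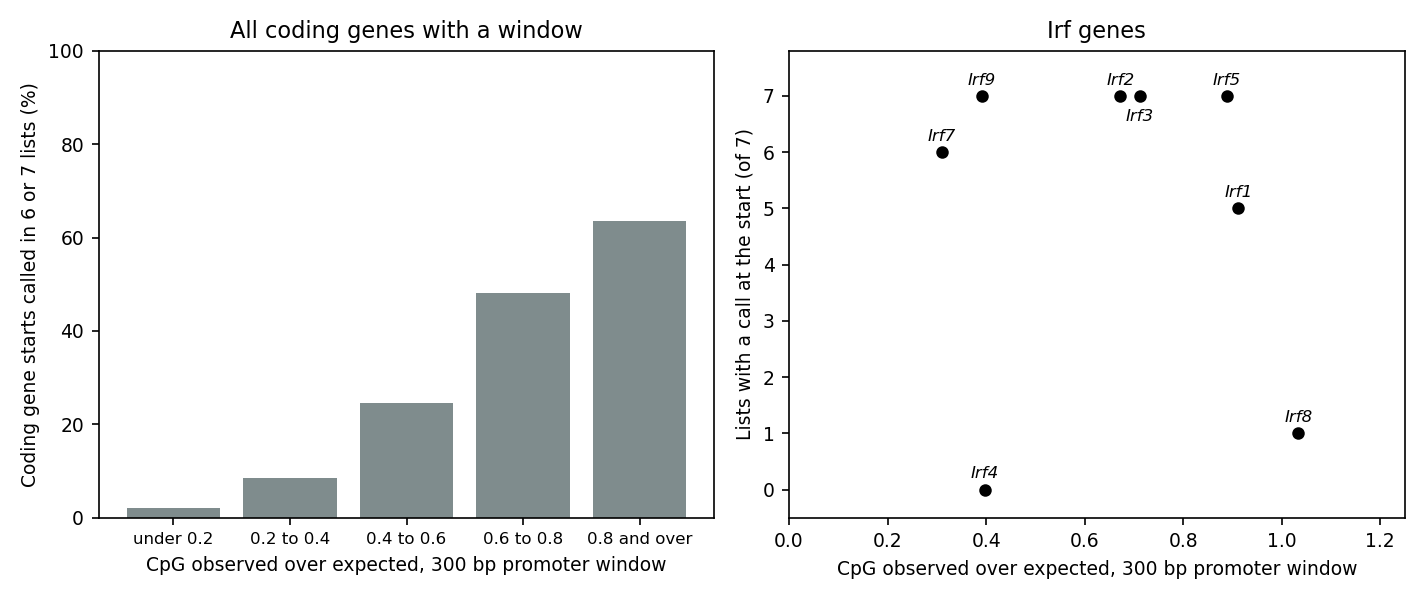
Left, percent of protein-coding gene starts called in 6 or 7 lists (y axis) by class of CpG observed over expected in the 300-base promoter window (x axis), rising from 2.17% to 63.5%. Right, the same ratio (x axis) against the number of lists with a call (y axis) for each Irf gene; Irf8 lies at the lower right, and Irf7 and Irf9 at the upper left.

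The windows were also searched on both strands for a pair of IRF half-sites (GAAANNGAAA), an ETS-IRF composite (GGAANNGAAA), and a STAT motif (TTCNNNGAA), which matched 3.35%, 2.53%, and 7.69% of protein-coding promoter windows. Matches were found in 3 members. Irf2 held all 3 motifs within 32 bases, and the composite and the half-site pair overlap there and share 4 bases. Irf1 held 1 STAT match, 90 bases before its start, and Irf8 held 2, at 171 and 153 bases before its start. The first windows of Irf3, Irf4, Irf5, Irf7, and Irf9 and the second windows listed for Irf1, Irf8, and Irf9 held no match. The matches are shown in capitals with up to 10 bases on either side, at chr11:53769914-53769942 for Irf1, chr8:46739495-46739523 and chr8:46739511-46739539 for the half-site pair and the STAT match of Irf2, and chr8:120736177-120736205 and chr8:120736195-120736223 for Irf8, all on the plus strand of GRCm38.p6.
Irf1, STAT: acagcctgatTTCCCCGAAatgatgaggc
Irf2, half-site pair: tggggaagtGAAAATGAAAttgacttttc
Irf2, STAT: aaattgacttTTCCGAGAAatgatgaaag
Irf8, first STAT: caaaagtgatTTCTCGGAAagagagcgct
Irf8, second STAT: aagagagcgcTTCAGAGAAggcggatttg

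To compare the diets, the strongest peak at each start was ranked within its own list by fold enrichment, since the fold depends on the background of its library. The rank is a percent of the list, with low values at the top. Domain width is the summed length of the peaks at the start. Among the members called in all 7 lists, Irf2 was nearest the top with a mean rank of 19.3% ± 8.74 (SD, n = 7), followed by Irf3 at 28.7% ± 24.8, Irf9 at 47.1% ± 10.9, and Irf5 at 63.5% ± 22.5. The median over protein-coding starts called in all 7 lists was 33.8%. Irf2 ranked nearer the top than Irf9 in 7 of 7 lists and than Irf5 in 6, and Irf3 ranked nearer the top than Irf5 in 7. The order was not kept between neighbors. Irf2 ranked nearer the top than Irf3 in 4 of 7 lists, Irf3 nearer than Irf9 in 4, and Irf9 nearer than Irf5 in 4.

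None of the 8 genes was called in all lists of 1 diet and in none of the other. Of the 13128 starts called in at least 1 list, 0.289% had this pattern in favor of HFD-LSK and 0% in favor of LFD-LSK. Of the 4 members called in all lists, none ranked nearer the top or farther from it in HFD-LSK, and none had a wider or narrower domain (exact permutation test, two-sided, at p under 0.05; the smallest p this design allows is 0.0286). Of 5035 starts tested, 0.993% were nearer the top, 1.31% farther, 3.75% wider, and 0% narrower at that threshold. After Benjamini-Hochberg adjustment over all starts, the lowest p of any start was 0.959 for rank and 0.709 for width by this test, so no start passed. With a smallest p of 0.0286, a start could pass the adjustment only if most of the starts tested reached that p. The adjusted values therefore do not decide whether a single start differs.

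Irf2, which encodes the repressor-type factor, had the widest mean domain of the 4 members called in all lists, although Irf5 was wider in HFD-LSK replicate 2. In order of replicate number, it measured 2500, 3928, and 2296 bp in the HFD-LSK lists and 2410, 2568, 3214, and 901 bp in the LFD-LSK lists, and values below follow the same order. The domain was therefore broad in every list but LFD-LSK replicate 4. In those 6 lists it was among the widest 0.491% to 2.73% of called protein-coding starts, and in LFD-LSK replicate 4 within the widest 19.8%. Its fold ranks were 9.59%, 28.1%, and 13.7% in HFD-LSK and 20.3%, 19.3%, 33.0%, and 11.1% in LFD-LSK, and the groups overlapped. The mean rank was 3.77 percentage points nearer the top in HFD-LSK (exact permutation test, two-sided, p = 0.60). Left out in turn, LFD-LSK replicate 3 turned this difference to 0.25, HFD-LSK replicate 1 to 0.012, and HFD-LSK replicate 2 to -9.27. The mean width was 635 bp greater in HFD-LSK (p = 0.486 by the exact test). Without HFD-LSK replicate 2 the difference in width was 125 bp, and without LFD-LSK replicate 4 it was 177 bp.

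The summit of the Irf2 domain lay well inside the gene. It was 1234 to 1538 bp downstream of the gene start in the 7 lists, with a median of 1505 bp. Among 4332 protein-coding starts called in all 7 lists, 0.554% (24 starts) had every summit more than 1000 bp downstream, and the median offset was 135 bp. With the summit instead of any overlap required within 1 kb, Irf2 was called in 0 lists. In LFD-LSK replicate 4 the peak (chr8:46740738-46741638) began 993 bp downstream, just inside the window. For gene structure, the Irf2 promoter window was matched to GRCm39 by sequence, where it occurs once, and distances were read from that start in GENCODE M39. The canonical transcript has its first exon end at 191 bp and its second begin at 53748 bp, so the summit distance falls in its first intron. Of 25 Irf2 transcripts, 5 begin in the 1000 bp before the median summit distance, at 521, 876, 898, 907, and 913 bp. Irf2 also shares its upstream side with the long noncoding gene Gm16675, whose start lies 230 bp upstream on the other strand and was called in 6 lists.

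**Figure D3:**
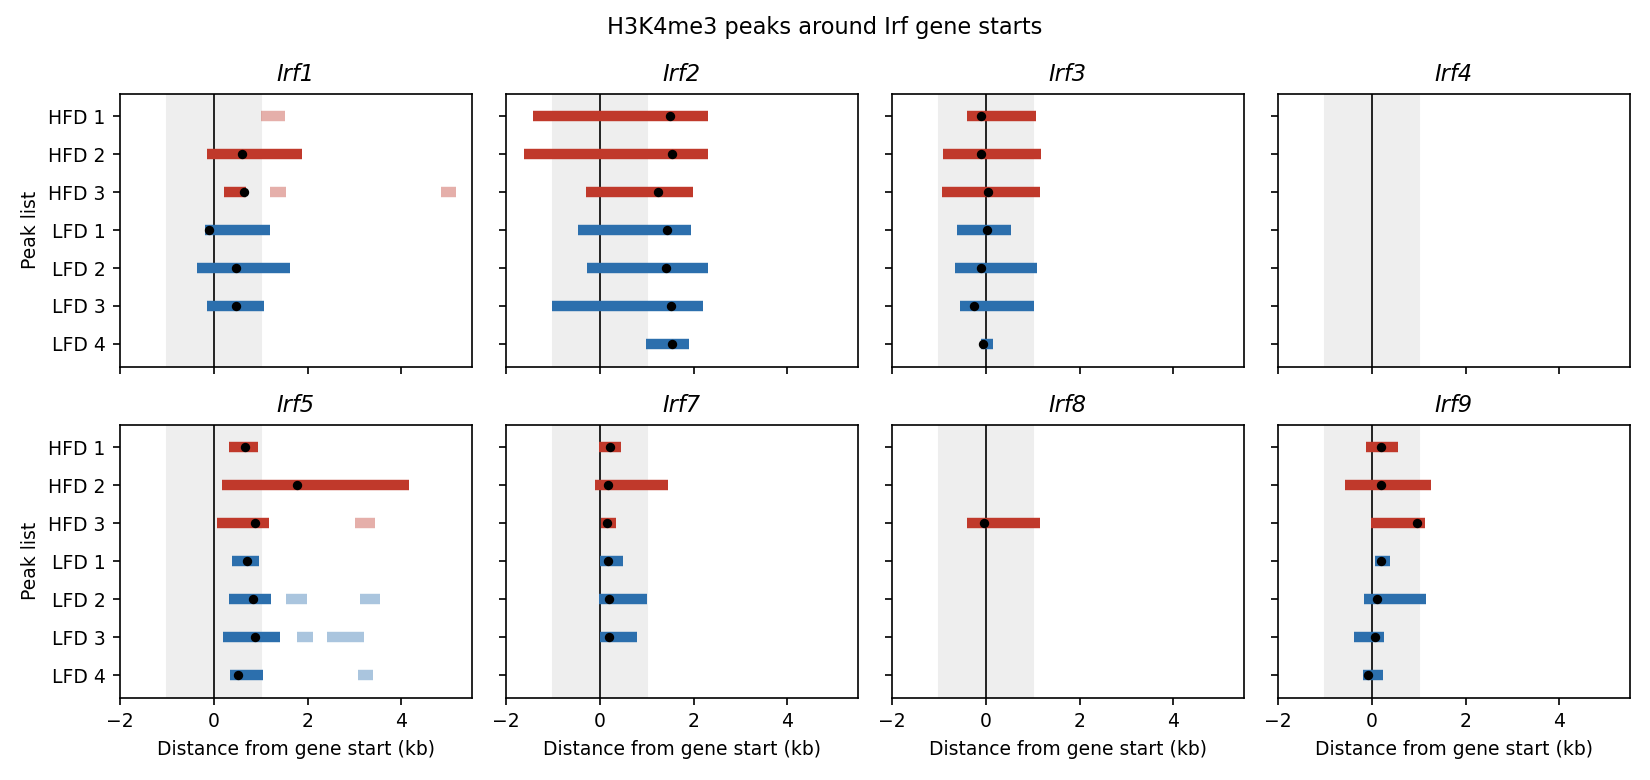
Extent of H3K4me3 peaks around each Irf gene start (x axis, distance in kb in the direction of transcription) in the 7 lists (y axis; red HFD-LSK, blue LFD-LSK). Full bars span the first to the last base of the peaks within 1 kb (gray band), dots mark the summit of the strongest, and pale bars are other gene body peaks within 5.5 kb; Irf2 summits lie 1234 to 1538 bp downstream of the start, and Irf4 has no bar.

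Irf3, which sensor pathways activate by phosphorylation, was the member whose rank varied most between lists. Its ranks were 21.9%, 6.41%, and 49.1% in HFD-LSK and 40.1%, 11.5%, 2.91%, and 69.1% in LFD-LSK. Each diet had lists in which Irf3 was near the top and lists in which it was not, and the groups overlapped. The difference in mean rank was -5.08 percentage points, HFD minus LFD (exact permutation test, two-sided, p = 0.829), and it turned to 4.62 without HFD-LSK replicate 2 and to 7.65 without LFD-LSK replicate 4. The domain measured 1484, 2107, and 2071 bp in HFD-LSK and 1166, 1752, 1587, and 254 bp in LFD-LSK. The mean was 698 bp greater in HFD-LSK (exact permutation test, p = 0.171), and 386 bp greater without LFD-LSK replicate 4, whose 254-bp peak was the narrowest of any member. The start of Irf3 lies 10 bp from that of Bcl2l12 on the other strand, so 1 domain covers both genes and the mark cannot be assigned to either.

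Irf5, a factor of toll-like receptor signaling, was called in all lists but lay low in most of them. Its ranks were 65.1%, 45.6%, and 77.7% in HFD-LSK and 94.6%, 53.5%, 29.0%, and 79.0% in LFD-LSK. The LFD-LSK lists held both its nearest and its farthest rank, and the difference in means was -1.23 percentage points (exact permutation test, two-sided, p = 0.943). Without LFD-LSK replicate 1 it was 8.96, without HFD-LSK replicate 2 it was 7.40, and without LFD-LSK replicate 4 it was 3.77. Width was 614, 3984, and 1096 bp in HFD-LSK and 576, 884, 1204, and 707 bp in LFD-LSK. The 3984-bp domain of HFD-LSK replicate 2 (chr6:29526312-29530295) made up nearly all of the difference of 1055 bp (exact permutation test, p = 0.286), which was 12.3 bp without that list. Summits lay 518 to 874 bp from the 5′ end of the gene in 6 lists and 1782 bp from it in HFD-LSK replicate 2. RefSeq's promoter window for Irf5 places transcription 495 bp downstream of that 5′ end.

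Irf5 was also the member with gene body peaks in most lists. Such a peak is one that overlaps the gene but not the 1 kb around its start. HFD-LSK replicate 3 had 1, LFD-LSK replicates 2 and 3 had 2 each, and LFD-LSK replicate 4 had 1, all between 1544 and 3540 bp downstream. The peak of HFD-LSK replicate 3 (chr6:29529143-29529562) ranked at 20.2% of its list, nearer the top than the peak at the start, and the peak of LFD-LSK replicate 4 at 48.8%, also nearer than at its start. The other 4 ranked between 79.7% and 95.2%. In HFD-LSK replicate 2 the single broad domain reached 4165 bp downstream and covered the same stretch. Of 15 Irf5 transcripts in GENCODE M39, 3 begin inside these peaks at 1952, 3148, and 3154 bp, read in GRCm39 from the sequence-matched promoter start, with the 495 bp from the 5′ end of the gene to that start added.

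Irf9, the DNA-binding subunit of the type I interferon signaling complex, was called in all lists despite the low CpG content of its promoter window. Its fold ranks were 39.2%, 52.0%, and 36.7% in HFD-LSK and 36.9%, 57.4%, 43.4%, and 64.1% in LFD-LSK, and they overlapped. The difference was -7.84 percentage points (exact permutation test, two-sided, p = 0.371). The 36.7% of HFD-LSK replicate 3 came from the stronger of 2 peaks, with its summit 975 bp downstream. In the other lists the summit lay -74 to 198 bp from the start. RefSeq lists a second Irf9 start 594 bp downstream of the first, so that rank may not describe the same domain. Ranked by the −log10 p of the peak instead, Irf9 lay at 37.2% to 48.5% in HFD-LSK and at 55.7% to 59.4% in LFD-LSK, and the groups did not overlap. This difference of -13.8 percentage points reached the smallest p the design allows (two-sided exact permutation p = 0.0286, adjusted p = 0.989), as did 1.07% of 5035 starts in that direction. The mean domain of Irf9 was the narrowest of the 4, and in single lists it was narrower than that of Irf5 in 5 of 7 and that of Irf3 in 6 of 7. It measured 686, 1828, and 732 bp in HFD-LSK and 325, 1324, 639, and 423 bp in LFD-LSK. The wide values were those of replicate 2 of either diet. The difference of 404 bp (exact permutation test, p = 0.429) was 31.3 bp without HFD-LSK replicate 2.

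All 4 of these members had a mean fold rank nearer the top in HFD-LSK. The median difference in fold rank over the 5035 starts tested was -1.76 percentage points, HFD minus LFD, so most starts shared this direction. With rank as a number instead of a percent, all 4 members were farther from the top on average in HFD-LSK, as given below. All 4 also had a wider mean domain in HFD-LSK, but so had 93.0% of these starts, whose median difference was 279 bp. When width was expressed as a percent rank within each list, 56.8% of starts were wider on average in HFD-LSK, 38 starts were wider and 73 narrower by the exact permutation test, and none of the 4 Irf genes passed. The part of list-wide width in the differences of the members was not tested.

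**Figure D4:**
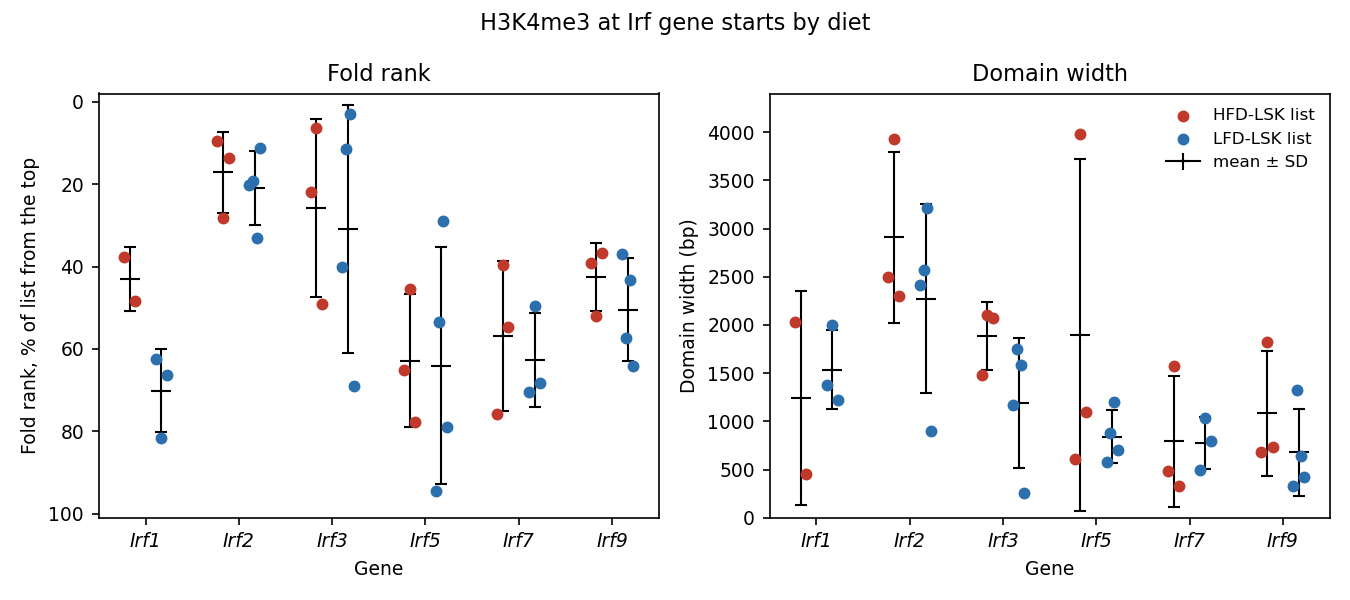
Fold rank (left y axis, percent of the list from the top, with the top of the list upward) and domain width (right y axis, bp) at the start of the 6 Irf genes called in more than 1 list (x axis). Each point is 1 list, red for HFD-LSK and blue for LFD-LSK, and black marks are the mean ± SD of the lists with a call; the diets overlap in width for every gene, and in rank for every gene except Irf1, which lacks a call in 1 list of each diet.

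Irf7, the interferon-inducible amplifier of type I interferon production, had a call in 3 of 3 lists from HFD and 3 of 4 from LFD mice (Fisher's exact test, two-sided, p = 1.00). The list without a call was LFD-LSK replicate 4, which alone lacked 57.3% of the 2629 protein-coding starts called in 6 lists. Its ranks were 75.9%, 39.6%, and 54.8% in HFD-LSK and 70.4%, 49.5%, and 68.2% in LFD-LSK, and the groups overlapped. The domain measured 485, 1571, and 327 bp in HFD-LSK and 500, 1033, and 801 bp in LFD-LSK. The summit was the steadiest of any member and lay 164 to 213 bp downstream of the start in 6 of 6 lists. Rank and width were not tested for Irf7, Irf1, and Irf8 because not every list had a call.

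Irf1, an early interferon target, had a call in 2 of 3 lists from HFD and 3 of 4 from LFD mice (Fisher's exact test, two-sided, p = 1.00). Where called, it ranked at 37.6% and 48.5% in HFD-LSK (replicates 2 and 3) and at 62.4%, 81.6%, and 66.3% in the first 3 LFD-LSK lists. Both HFD-LSK values were nearer the top than all LFD-LSK values, as at 19.2% of the 527 starts with the same number of calls in each diet. In HFD-LSK replicate 1 the nearest Irf1 peak (chr11:53771026-53771532) began 1012 bp downstream, just outside the window, and ranked at 97.2%. It counts as a call within 3 kb and from the second Irf1 start in RefSeq, 459 bp downstream, and either choice gave 6 lists. The width was 2026 and 458 bp in HFD-LSK and 1382, 1997, and 1225 bp in LFD-LSK, so the narrowest and the widest domain were both from HFD-LSK. HFD-LSK replicate 3 had 2 further peaks in the gene body, beginning 1195 and 4850 bp downstream, and LFD-LSK replicate 4 had no peak at the start or in the body.

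Irf8, a factor of monocyte and dendritic cell development, was called in HFD-LSK replicate 3 alone. That was 1 of 3 against 0 of 4 lists (Fisher's exact test, two-sided, p = 0.429), the smallest p that a single call allows. The domain (chr8:120735950-120737515) was 1566 bp wide, within the widest 12.6% of called protein-coding starts of that list. Its fold rank was 90.3%, and its −log10 p of 5.95 was close to the limit of the list. Of 762 protein-coding starts called in a single list, 31.5% were in HFD-LSK replicate 3 and 56.4% in HFD-LSK replicate 2. With a −log10 q of at least 5 or with equal numbers of peaks per list, Irf8 had no call. Irf4, a factor of lymphocyte and plasma cell differentiation, had no peak within 1 or 3 kb of its start or in the gene body in any list. Dusp22, the gene with the nearest placed start to that of Irf4, begins 89174 bp upstream of it and was called in 6 lists.

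Gene body peaks were otherwise few. Irf2 had 1 in HFD-LSK replicate 3, beginning 23486 bp downstream, and 1 in LFD-LSK replicate 3, beginning 25072 bp downstream, and these did not overlap. Irf3, Irf4, Irf7, Irf8, and Irf9 had none.

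The genes around the family were described by group. Of 58 pathway genes with a start, 18 were called in all 7 lists, 25 in 1 to 6 lists, and 15 in none. Over all protein-coding starts, 20.2% were called in all 7 lists and 48.7% in none, and the group counts below stand against these shares. None of the 58 genes was called in all lists of 1 diet and in none of the other. Rank and width could be tested only for the 18 called in all 7 lists. None of these passed the exact permutation test in either direction. Among receptors, kinases, and Stat2, 4 of 10 were called in all lists, and of these 4 the 2 nearest the top were Ifnar2, a chain of the type I interferon receptor (mean rank 23.0%), and Ifngr1, a chain of the type II receptor (29.3%). Among sensors and activating kinases, 3 of 10 were called in all lists, of which the adaptors Myd88 (21.1%) and Sting1 (24.6%) were nearest the top, and the other 7 had a call in at least 1 list. Among interferon targets, 7 of 27 were called in all lists and 8 in none. Tap1, a peptide transporter subunit, and Psmb9, an immunoproteasome subunit, had the same rank (11.3%) because they share 1 start domain. Among DNA-binding partners and Irf2-binding proteins, 4 of 7 were called in all lists, with Irf2bp2, a corepressor (26.5%), and Batf, a partner of Irf4 (41.7%), nearest the top. Spi1, the partner of Irf4 and Irf8, was called in 1 list. None of the 4 interferon genes examined (Ifna2, Ifnb1, Ifng, and Ifnk) had a call in any list.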

How the data were processed

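H3K4me3 CUT&Tag libraries of LSK cells, 3 from HFD and 4 from LFD mice, were analyzed from 1 peak list each. Per the labels, the submitters' processing notes name Trim Galore, Bowtie2, Picard, MACS2, bedtools, HOMER, and featureCounts, without versions, and GRCm38. The paper's methods instead name GRCm39 and SEACR. The lists the authors deposited are MACS2 narrow peaks called per library: positions, a fold enrichment (ratio of summit to local background), −log10 p and −log10 q, and a score. They hold no read counts, so depth is unknown here and fold was ranked within lists. Fragment counts, DESeq2 fits, and IgG libraries were not analyzed here.

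Gene starts are the 5′ ends of RefSeq genes (GRCm38.p6), with strand from RefSeq promoters or, by symbol, GENCODE. Of 49943 genes on the chromosomes used, 45217 had a start. Calls were compared by Fisher's exact test, ranks and widths by exact permutation tests, with Benjamini-Hochberg adjustment over all starts (Python 3.11.15, numpy 2.4.6, pandas 2.3.3, scipy 1.17.1). Steps were tested on simulated data. All members were described. From the pathway lists, the 2 genes nearest the top per list were named, and any past a test. Bcl2l12, Gm16675, Dusp22, Spi1, the ligands, and the markers Kit, Cd34, Ly6a, and Slamf1 were named after their values were seen. Members and lists were chosen with earlier results of these data known. Alternatives were windows, thresholds, list length, rank and width scales, replicate pairing, and each library left out; starts from the promoter table were added after seeing the data. Rigi had no match by symbol. Of the pathway lists, 1 gene is not reported here.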

Additional observations from a re-analysis of the deposited data

How the results depend on the processing

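The 8 tests of rank and width at Irf2, Irf3, Irf5, and Irf9 stayed above p of 0.05 under the alternatives run, except the rank of Irf9 by −log10 p given above; designs with 1 library left out cannot go below it. Irf3 and Irf5 at a −log10 q of at least 5, and Irf5 with equal numbers of peaks per list, lost a call and had no value. The rank difference, HFD minus LFD, was 4.73 percentage points for Irf5 by −log10 p and 3.13 among starts called in all 7 lists. Leaving out 1 library moved it to between -9.27 and 0.25 for Irf2, with 0.012 when HFD-LSK replicate 1 was left out and 0.25 when LFD-LSK replicate 3 was. The range was -16.7 to 7.65 for Irf3, -12.9 to 8.96 for Irf5, and -12.5 to -3.29 for Irf9. The cause of these changes was not tested. With rank as a number, the difference was 136.3 places for Irf2, 591 for Irf3, 1793 for Irf5, and 497 for Irf9. With equal numbers of peaks per list, which is that number as a percent of the shortest list, it was 1.97 percentage points for Irf2, 8.54 for Irf3, and 7.18 for Irf9. Both scales depend on the length of the list, which was greater on average in HFD-LSK. The part of list length in these reversals was not tested. Width differences kept their sign in every setting run.

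Over all starts, 38 were called in all lists of HFD-LSK and none of LFD-LSK, 0 showed the reverse, 50 ranked nearer the top in HFD-LSK and 66 farther, and 189 were wider and 0 narrower. With a −log10 q of at least 5, 79 starts had calls in all HFD-LSK and no LFD-LSK lists, 32 ranked nearer the top, 36 farther, and 108 were wider. With equal list lengths, 28 had calls in all HFD-LSK and no LFD-LSK lists and 27 showed the reverse, 10 ranked nearer, and 40 farther. With the summit required within 1 kb, 1 start had calls in all LFD-LSK and no HFD-LSK lists. With rank as a number, 14 ranked nearer and 179 farther. With width as a percent rank, 38 were wider and 73 narrower. Leaving out 1 library gave 41 (HFD-LSK replicate 2) to 399 (HFD-LSK replicate 1) starts called in all HFD-LSK and no LFD-LSK lists that remained, among them 187 (LFD-LSK replicate 2) and 102 (LFD-LSK replicate 3), and 0 to 28 (HFD-LSK replicate 2) with the reverse pattern. These smaller designs cannot reach p of 0.05, so starts at the smallest p were counted: 77 to 370 nearer, 119 to 245 farther, 138 to 1118 wider, and 0 to 21 narrower.

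Replicates 1 to 3 share a number across diets. Deviations of same-numbered libraries correlated by 0.18, 0.017, and 0.037 across starts. The 0.18 of replicate 1 was the highest of any pair of an HFD-LSK and an LFD-LSK library. HFD-LSK replicate 3 correlated more with LFD-LSK replicate 2 (0.048) than with its own number. The paper states that its differential peak results took batch and pairing into account, whereas the main tests here were unpaired. With the replicate block, a sign-flip test of 3 pairs that cannot reach p of 0.05, 794 starts were nearer the top, 482 farther, 1616 wider, and 79 narrower in all 3 pairs, and the rank difference was 7.65 for Irf3 and 3.77 for Irf5.

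The lists hold no read totals, and 3 against 4 libraries limit the tests. A weak domain below the threshold of its list is not seen. Irf8 and Irf2 depend on how a call is defined, as given above, and LFD-LSK replicate 4 and HFD-LSK replicate 2 set several width differences. No outlying value by Dixon's ratio was found in 8 sets of 4 LFD-LSK values.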
